A study of Homo sapiens with 14 samples.

Results

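Transcript levels of 10 genes of protein folding and stress signalling in the endoplasmic reticulum (ER) were compared across the libraries of 2 human leukaemia cell lines. The genes are HSPA5, HSP90B1, CALR, CANX, PDIA3, PDIA4, PDIA6, HERPUD1, DNAJB9 and XBP1. They were chosen by symbol, with earlier results of these data known. All 10 were among the 13720 gene rows that the 3 deposited tables share. Total RNA was sequenced from MV4;11, a line of myelomonocytic leukaemia with a KMT2A-AFF1 fusion, and from EOL-1, a line of eosinophilic leukaemia. The 14 libraries formed 7 groups of 2, and every group, controls included, received doxycycline at 1 µg/ml for 4 days. In MV4;11, shEZH2 cells were set against the control EV, and cells labelled sgcMyc_1 or sgcMyc_5 (guide 1 and guide 5 against MYC) were set against the control sgEV. In EOL-1, sgEZH2 cells were set against a sgEV control of their own. The labels do not say whether the cells of a group were 1 clone or a pool. The question was whether the folding arm of the ER stress response moved when EZH2, the methyltransferase of Polycomb repressive complex PRC2, or the transcription factor MYC was targeted.

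Secreted and membrane proteins fold inside the ER with the help of HSP70 and HSP90 chaperones, lectin chaperones and disulfide isomerases. When unfolded proteins accumulate, the sensors ATF6, IRE1 and PERK start the unfolded protein response: cleaved ATF6 and the spliced form of XBP1 raise transcription of chaperones and of ER-associated degradation genes, and PERK acts through translation and ATF4. Myeloid cells such as these lines make granule proteins that pass through the same compartment. Counts per gene cannot separate spliced from unspliced XBP1, so the splicing step itself was not measured here.

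ATF6 and XBP1 act at the ER stress response element (ERSE), whose promoter matches are printed first because they are the regulatory letters that most of these 10 genes share. ERSE was searched as CCAAT, any 9 bases and CCACG, on both strands, in the 250 bases before each transcript start of the RefSeq promoter table (GRCh38.p14). The table held 9 of the 10 genes, without PDIA3. The motif was in 26 of all 35116 promoters (0.074%) and in 6 of the 9 genes. In the lines below, given 5′ to 3′ on the strand of the gene, capitals mark CCAAT and CCACG, and a match on the other strand reads CGTGG before ATTGG.
HSPA5, chr9:125241388-125241412: tcaCCAATcggcggcctCCACGacg
HSP90B1, upstream match, chr12:103930213-103930237: tgaCCAATcggaaggagCCACGctt
HSP90B1, downstream match, chr12:103930318-103930342: gtgCGTGGtgcggcgcgATTGGtgg
CALR, chr19:12938381-12938405: acgCGTGGtcgaccatcATTGGtcg
CANX, chr5:179698775-179698799: cggCCAATcttcacactCCACGaag
PDIA6, chr2:10812850-10812874: ggaCCAATgagccgcagCCACGgct
XBP1, chr22:28800600-28800624: tggCCAATcgcggagggCCACGacc
HSPA5, PDIA6 and XBP1 lie on the minus strand and the others on the plus strand. The HSPA5 match spans bases 66 to 48 before its start and the XBP1 match bases 52 to 34. CANX has 4 starts in the table, and 2 of their windows hold the same match.

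HERPUD1 held the shorter variant ERSE-II (ATTGG, any 1 base and CCACG, in 18 promoters or 0.0513%), with its letters in capitals in the next line.
HERPUD1, chr16:56932022-56932038, plus strand: ccgATTGGgCCACGttg
The HERPUD1 window also held the amino acid response element TGATGNAA, a motif known for ATF4 and its partners, which was in 3.14% of all promoters, and an E-box CACGTG, the motif bound by MYC with MAX, which was in 6.34%. An E-box was also in the windows of HSP90B1, where it lies at the far end, and of DNAJB9, which had 2. None of the 9 genes held TGACGTGG, the core of the XBP1 element (0.612% of promoters). PDIA4 matched no motif searched. A match is a description of letters in a window and shows no binding.

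**Figure D1:**
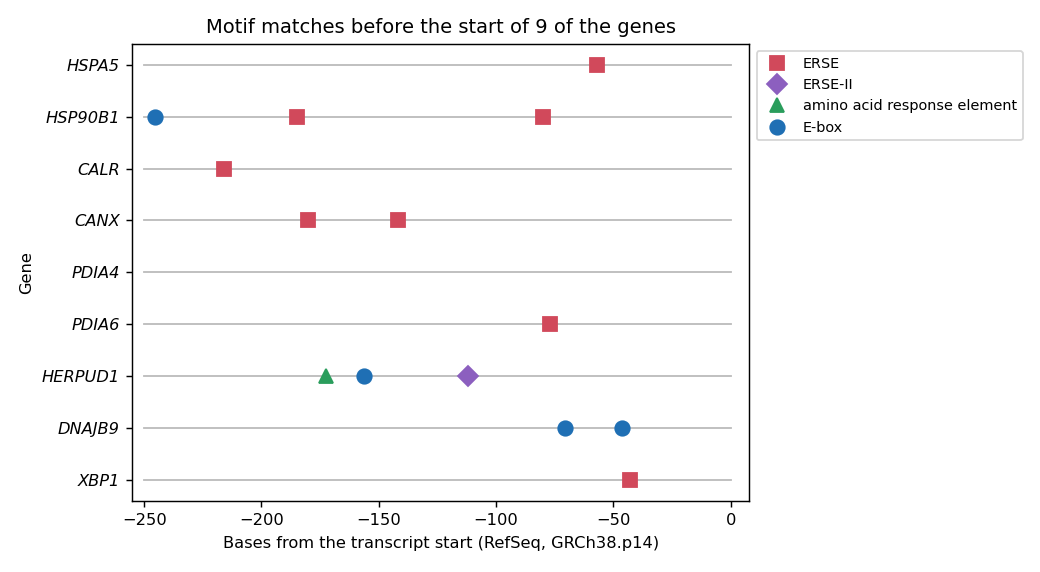
Motif matches in the 250 bases before the start of the 9 genes in the RefSeq promoter table; the x axis gives bases from the transcript start and each row 1 gene. Squares mark ERSE in 6 genes, with 2 in HSP90B1, and CANX is drawn once for each of 2 start sites that share 1 match.

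EZH2 and MYC were read first. EZH2 fell from 73.3 and 75.8 CPM in EV to 9.75 and 9.70 CPM in shEZH2, which is 13.1% of control, and in EOL-1 it fell from 70.7 and 70.4 to 27.8 and 26.1 CPM, or 38.2% of control. CPM are counts scaled to a common library size (TMM of edgeR). In the libraries labelled sgcMyc the MYC transcript was higher than in control: it was 658 and 660 CPM in sgEV, 866 and 872 with guide 1 and 818 and 822 with guide 5. That is a log2 fold change of 0.36 ± 0.04 by edgeR (adjusted p = 1.34e-05). A cut by a guide need not lower the transcript, and the protein was not measured, so these groups are called by their labels. By the same test MYC was also higher in shEZH2 (0.25 ± 0.04, adjusted p = 5.69e-04), and not called in EOL-1 (-0.04 ± 0.03, adjusted p = 0.354). EZH2 was lower with the MYC guides (-0.19 ± 0.06, adjusted p = 0.0183), though not with guide 5 alone (adjusted p = 0.0766). Libraries held 13313056 to 16274554 counts in MV4;11 and 24574136 to 30256833 in EOL-1. The leukocyte and myeloid genes PTPRC, CD33, SPI1, CEBPA and FLT3 were detected in every group. The summed level of the 9 of 12 myeloid markers with a row was 1525 to 1546 CPM in EV and 1654 to 1682 in shEZH2, 1897 to 1910 in sgEV, 5379 to 5406 with guide 1 and 5015 to 5103 with guide 5, and 1036 to 1046 in EOL-1 sgEV and 2648 to 2666 in sgEZH2, with none at 0. LYZ, the lysozyme gene, rose in each comparison: its mean went from 194 to 502 CPM in shEZH2, from 158 to 3717 and 3435 with guides 1 and 5 and from 198 to 1640 in EOL-1. Without LYZ the other 8 summed to 1339 to 1344 CPM in EV and 1157 to 1176 in shEZH2, to 1739 to 1752 in sgEV, 1672 to 1681 with guide 1 and 1616 to 1632 with guide 5, and to 834.5 to 851.3 and 1013 to 1022 in EOL-1. Of the 9 markers 3 were higher and 4 lower in shEZH2, 5 and 2 with the MYC guides, and 8 and 0 in EOL-1. The shares over all genes, higher and lower, were 13.4% and 14.2%, 18.6% and 18.7%, and 15.1% and 11.8%. Summed markers of T and NK cells (at most 2 of 9 with a row) lay at 36.5 to 112 CPM over all groups, of erythroid cells and megakaryocytes (at most 4 of 11) at 9.60 to 47.0 and of epithelium and fibroblasts (2 of 10) at 1.53 to 62.7. Those of plasma and B cells (at most 7 of 14) lay at 11.2 to 37.6. In EOL-1 the T and NK sum was the NKG7 row alone (mean 110.7 CPM in sgEV and 94.2 in sgEZH2). The epithelial and fibroblast sum there was mostly PDGFRA (62.1 and 60.7 CPM), with KRT8 at 0.401 and 0.514. In bulk RNA, fewer cells of a kind and less RNA per cell cannot be told apart.

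Changes below are log2 fold changes ± SE from the quasi-likelihood test of edgeR, with p adjusted over all genes of a table and a threshold of 0.05. Each group had n = 2 libraries, and the labels do not say that these are separate cultures, so the p-values speak only of the spread from library to library. The 2 libraries of a group differed by a median of 2.22% of their mean over the 10 genes and all groups. The widest gap was 16.8% of the mean, for HERPUD1 with guide 5.

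**Figure D2:**
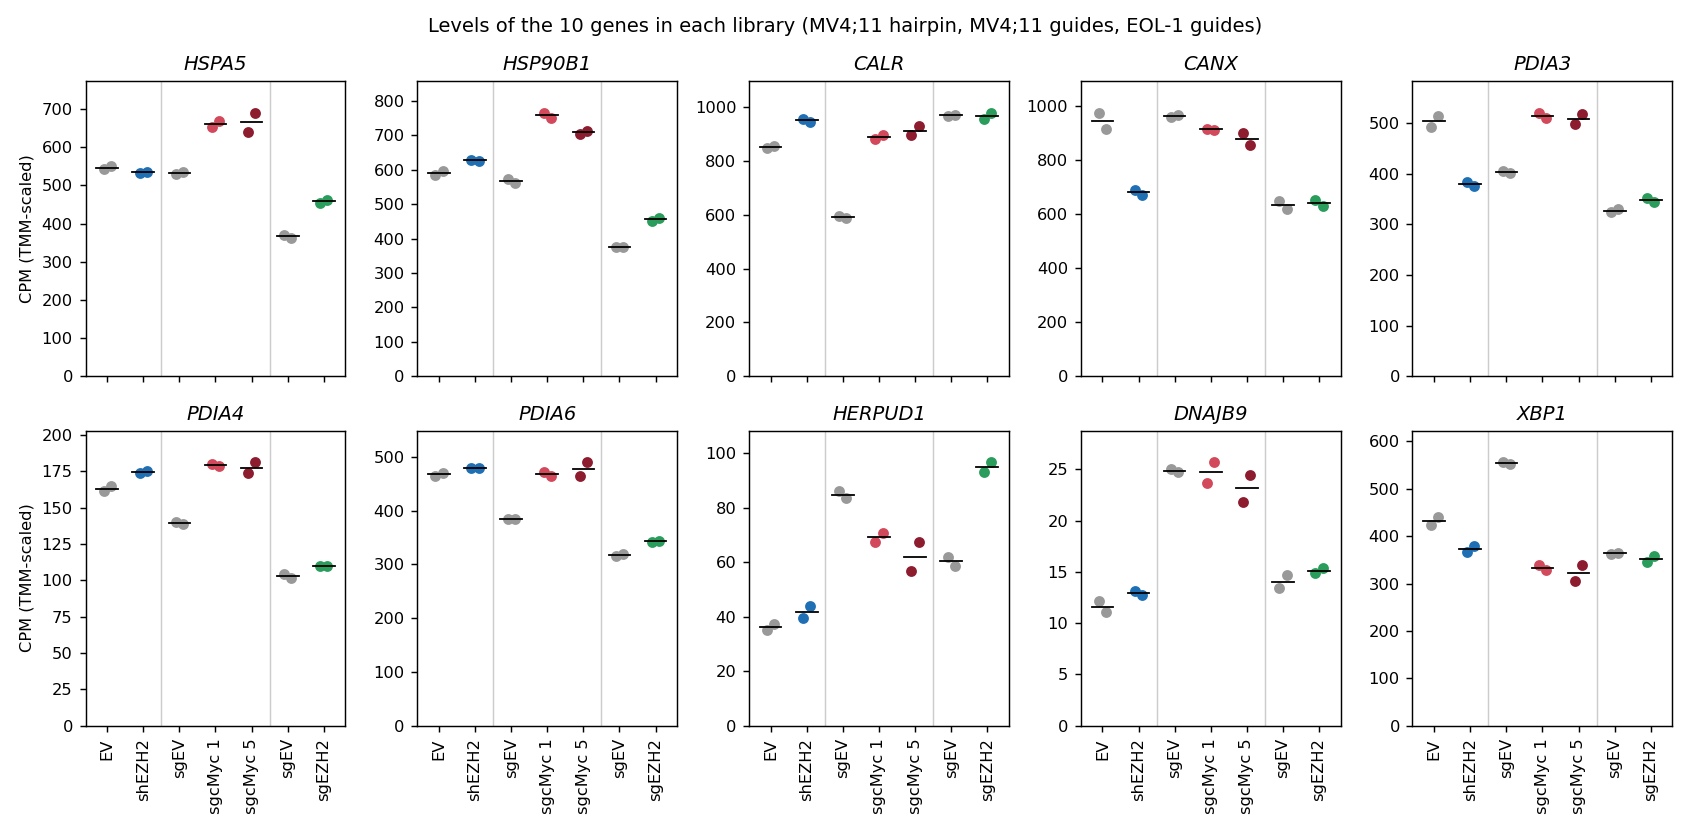
Level of each of the 10 genes in every library, in TMM-scaled CPM on axes that start at 0; points are libraries, bars are group means, and grey lines separate the 3 tables, which were scaled separately. With the MYC guides HSPA5 lay at 640 to 691 CPM against 529 and 536 in sgEV, while XBP1 lay at 305 to 340 against 556 and 553.

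In the libraries labelled sgcMyc 3 chaperone genes and all 3 disulfide isomerase genes rose, by 23.3 to 51.9%, while XBP1 fell by 40.8% and HERPUD1 fell by 22.7%. With the mean of both guides set against sgEV, 6 of the 10 genes were higher, 2 were lower and 2 did not pass the test. Over all 13948 genes tested, 37.3% were called in either direction, 18.6% higher and 18.7% lower. That is 5203 genes, and 2935 or 3013 without the first or the second sgEV library. The median log2 fold change was 0.31 over the 10 genes and -0.00 over all genes. The libraries of the 2 conditions did not overlap for 9 of the 10 genes, DNAJB9 being the exception, and for 53.3% of all genes.

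HSPA5 encodes BiP, the HSP70 of the ER lumen and a regulator of the stress sensors. Its level was 529 and 536 CPM in sgEV, 653 and 668 with guide 1, and 640 and 691 with guide 5. All 4 guide libraries lay above both controls, a log2 fold change of 0.31 ± 0.04 (adjusted p = 1.03e-04). HSP90B1 encodes GRP94, the HSP90 of the ER. It stood at 573 and 562 CPM in sgEV, at 766 and 751 with guide 1 and at 703 and 714 with guide 5, a rise of 0.37 ± 0.04 (adjusted p = 1.13e-05).

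The lectin chaperones hold newly made glycoproteins until they are folded, CALR in the lumen and CANX in the membrane. CALR showed the widest rise of the 10 genes: 597 and 589 CPM in sgEV, 881 and 897 with guide 1 and 895 and 931 with guide 5, or 0.60 ± 0.04 (adjusted p = 1.87e-07). CANX, its membrane-bound relative, did not rise with it. CANX stood at 956 and 967 CPM in sgEV, 915 and 911 with guide 1 and 898 and 856 with guide 5. The guide libraries lay below both controls, but the change of -0.10 ± 0.04 did not pass the test (adjusted p = 0.0574). It passed as lower in 6 of 14 alternatives: by DESeq2 (adjusted p = 0.0334), with genes filtered at a mean of 50 counts (0.0395), without the robust step (0.0451), with a replicate block (0.0406) and without the first or second guide 5 library (1.07e-04 and 0.00472). Scaled to the spike-in RNA, the CANX difference was 0.01.

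The disulfide isomerases, which form and shuffle disulfide bonds, moved by similar amounts. PDIA3, also called ERp57, works with both lectin chaperones, and it went from 405 and 401 CPM in sgEV to 520 and 509 with guide 1 and 498 and 518 with guide 5 (0.34 ± 0.04, adjusted p = 2.36e-05). PDIA4 went from 140 and 139 CPM to 180 and 179 and to 174 and 181 (0.36 ± 0.04, adjusted p = 2.46e-05). PDIA6 went from 384 CPM in both controls to 473 and 464 and to 465 and 490 (0.30 ± 0.04, adjusted p = 7.93e-05). In all 3 genes every guide library lay above both controls.

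XBP1 and HERPUD1 were lower with the guides. XBP1 is the transcription factor made active by IRE1 splicing, and its transcript is itself a target of the response. XBP1 stood at 556 and 553 CPM in sgEV, at 339 and 328 with guide 1 and at 305 and 340 with guide 5. That is 59.2% of control, or -0.76 ± 0.04 (adjusted p = 5.85e-08), with no overlap. HERPUD1, an ER membrane protein of the degradation machinery and a common reporter of ER stress, stood at 86.2 and 83.4 CPM in sgEV, at 67.5 and 70.8 with guide 1 and at 56.8 and 67.2 with guide 5. It fell by 0.37 ± 0.06 (adjusted p = 5.61e-04). DNAJB9, the co-chaperone ERdj4 of BiP, was at 25.0 and 24.7 CPM in sgEV, 23.7 and 25.7 with guide 1 and 21.9 and 24.4 with guide 5. These libraries overlapped, and the change was -0.06 ± 0.08 (adjusted p = 0.585).

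HSPA5 and XBP1 moved in opposite directions and both carry an ERSE close to the start, so their whole 250-base windows are shown, each with its ERSE in capitals and ending at the base before the start.
HSPA5, chr9:125241344-125241593, minus strand: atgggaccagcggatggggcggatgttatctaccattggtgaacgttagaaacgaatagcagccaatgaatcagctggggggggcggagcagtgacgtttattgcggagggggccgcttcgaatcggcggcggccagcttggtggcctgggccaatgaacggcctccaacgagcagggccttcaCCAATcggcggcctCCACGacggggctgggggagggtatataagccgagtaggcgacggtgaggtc
XBP1, chr22:28800570-28800819, minus strand: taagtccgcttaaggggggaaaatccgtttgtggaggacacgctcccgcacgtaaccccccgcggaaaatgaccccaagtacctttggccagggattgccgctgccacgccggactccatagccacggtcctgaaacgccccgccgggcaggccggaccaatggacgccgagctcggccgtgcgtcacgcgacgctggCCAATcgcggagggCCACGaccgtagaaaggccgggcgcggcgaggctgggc
The same motif was in 25 genes of the promoter table, of which 15 were tested in the sgcMyc comparison. Of these, 7 were higher, 4 lower and 4 not called, beside 18.6% of all genes higher and 18.7% lower. Among the 9 that are not members 3 were higher and 3 lower. ALG12, CRELD2 and SYNPO were the higher ones and EIF2A, SERP1 and TRIM5 the lower ones, named here after their values were seen. ALG12 and CRELD2 lie head to head on opposite strands with overlapping windows, and so do EIF2A and SERP1. CRELD2, an ER stress-inducible secreted protein, changed by 0.70 ± 0.08, and SERP1, a stabiliser of membrane proteins, by -0.26. In shEZH2 3 of 15 tested genes with the motif were higher and 3 lower, beside 13.4% and 14.2% of all genes. Among the 9 that are not members 2 were higher and 1 lower. In EOL-1 5 of 14 were higher and 0 lower, beside 15.1% and 11.8%, and among the 8 that are not members 2 were higher and 0 lower. In both EZH2 comparisons the higher ones outside the members were EIF2A and SERP1, whose windows overlap. These counts hold the members already described and are no separate evidence.

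Both guides gave similar values. They share the sgEV libraries, so their fold changes are not independent. Guide 1 alone gave 6 genes higher and 2 lower, beside 16.2% of all genes higher and 16% lower (32.2% called), and its libraries did not overlap sgEV for 69.4% of all genes. Guide 5 gave 6 higher and 3 lower, beside 15.7% and 15.5% (31.2% called), with no overlap for 65% of all genes. Without the first or the second sgEV library the calls over all genes went from 4488 to 2477 or 2580 with guide 1 and from 4354 to 2360 or 2470 with guide 5, and for guide 1 without its own first or second library to 2773 or 2665. Among the 10 genes DNAJB9 overlapped sgEV with guide 1, and none did with guide 5. HSPA5 changed by 0.31 ± 0.05 with guide 1 and 0.32 ± 0.05 with guide 5, CALR by 0.58 ± 0.05 and 0.62 ± 0.05, and XBP1 by -0.73 ± 0.05 and -0.78 ± 0.05. HERPUD1 changed by -0.29 ± 0.07 with guide 1 (adjusted p = 0.00858) and -0.45 ± 0.07 with guide 5 (adjusted p = 5.89e-04). CANX passed the test with guide 5 alone (-0.13 ± 0.05, adjusted p = 0.0443).

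Set directly against each other, guide 5 minus guide 1 called 0 of the 10 genes by edgeR and 0 by DESeq2. Over all genes edgeR called 0.409%, 0.0789% higher and 0.33% lower, and the libraries of the guides did not overlap for 36.4%. That share rests on single libraries: the 57 calls became 872 or 365 without the first or second guide 5 library, 9 without either guide 1 library and 19 or 18 without the first or second sgEV library. At an unadjusted p under 0.05 only HSP90B1 stood out, 0.10 lower on the log2 scale with guide 5 (-0.10 ± 0.04, adjusted p = 0.568). Some single calls of 1 guide rested on few libraries. HERPUD1 with guide 1 did not pass without either sgEV library, without the first guide 1 library or under spike-in scaling (adjusted p 0.0568 to 0.0990). CANX with guide 5 did not pass without either sgEV library or either guide 1 library (adjusted p 0.112 to 0.263), and under spike-in scaling its change was 0.02.

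Spike-in RNA gave another scale in MV4;11. Scaled to the summed spike-in rows, the median of all genes moved up by 0.12 in the sgcMyc comparison, and 72.8% of called genes were higher against 49.8% under TMM. The 10 genes kept 6 higher and 2 lower calls on that scale. The split moved from 50.2 to 67.3% higher with guide 1 and from 50.3 to 78.3% with guide 5. In the shEZH2 comparison the share of higher calls moved from 48.5 to 36.4%.

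Other genes of the compartment were read from lists chosen by role, also with earlier results of these data known. In the sgcMyc comparison 18.6% of all genes were higher and 18.7% lower. Of 25 other ER chaperones and co-chaperones tested in the sgcMyc comparison, 10 were higher and 3 lower (median 0.18). LRPAP1, the chaperone of LDL receptor family proteins, rose from a mean of 127 to 222 CPM (0.80 ± 0.04), and HSPA13 and SEC63 fell by 0.62 ± 0.04 and 0.34 ± 0.04. Of 18 other disulfide isomerases and oxidases, 6 were higher and 2 lower (median 0.06), and DESeq2 called 3 higher and 2 lower. P4HB, the founding disulfide isomerase, rose by 0.25 ± 0.04 from 1668 CPM, and ERO1L, the oxidase that recharges these enzymes and is also on the PERK-ATF4 list, fell by 0.32 ± 0.06. For ER-associated degradation the count was 10 higher and 3 lower of 29 (median 0.05), with the lectin OS9 up by 0.41 ± 0.04 and the channel gene DERL1 and the mannosidase-like EDEM1 each down by 0.34 ± 0.04.

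Protein import and glycosylation genes (translocon, signal peptidase and oligosaccharyl transferase) gave 11 higher and 5 lower of 33 (median 0.06). Over all genes 18.6% were higher and 18.7% lower. The oligosaccharyl transferase subunits RPN2 and DDOST rose by 0.31 ± 0.04 and 0.30 ± 0.04. Enzymes of the lectin chaperone cycle split into 3 higher and 3 lower of 8, among them PRKCSH, a glucosidase II subunit, at -0.30 ± 0.04. ER to Golgi transport gave 8 higher and 6 lower of 27, with KDELR1, the receptor that returns escaped chaperones, at -0.25 ± 0.04. Under spike-in scaling the lower calls of the lists of oxidases, degradation, import and transport went to 0. By DESeq2 the higher and lower calls were 7 and 2 for degradation and 10 and 4 for import. They were 2 and 3 for the lectin chaperone cycle and 6 and 5 for transport.

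Sensors of the response and the list named PERK-ATF4 were read next, beside 18.6% of all genes higher and 18.7% lower. That list is named by role, and PERK activity was not measured. Of 15 sensors and transducers tested, 1 was higher and 4 lower (median -0.07), among them ERN1, which encodes IRE1, from 26.7 to 22.1 CPM (-0.27 ± 0.07). That direction depended on the scale: under spike-in scaling 4 were higher and 0 lower (median 0.05). In the PERK-ATF4 list 0 of 21 genes were higher and 20 lower, with a median of -1.36, and under spike-in scaling 0 were higher and 17 lower (median -1.24). At an unadjusted p under 0.05 the count of higher genes was also 0, as it was by DESeq2. ATF4 itself fell from a mean of 561 to 158 CPM (-1.83 ± 0.04), and the asparagine synthetase gene ASNS from 189 to 18.5 CPM (-3.35 ± 0.06). DDIT4, an inhibitor of mTORC1 signalling, fell by 3.13 ± 0.06 and the tryptophanyl-tRNA synthetase gene WARS by 1.38 ± 0.04. CEBPB was the 1 gene not called, at -0.11 ± 0.06 (adjusted p = 0.146), named after its value was seen. Of the 9 myeloid markers 5 were higher and 2 lower with these guides. LYZ, CSF3R (0.63 ± 0.05) and ITGAM (1.59 ± 0.15) were among the higher ones. FLT3 fell from 698 CPM to 543 and 517, and PTPRC fell from 235 CPM to 209 and 196. The part of these markers in the chaperone result was not tested.

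**Figure D3:**
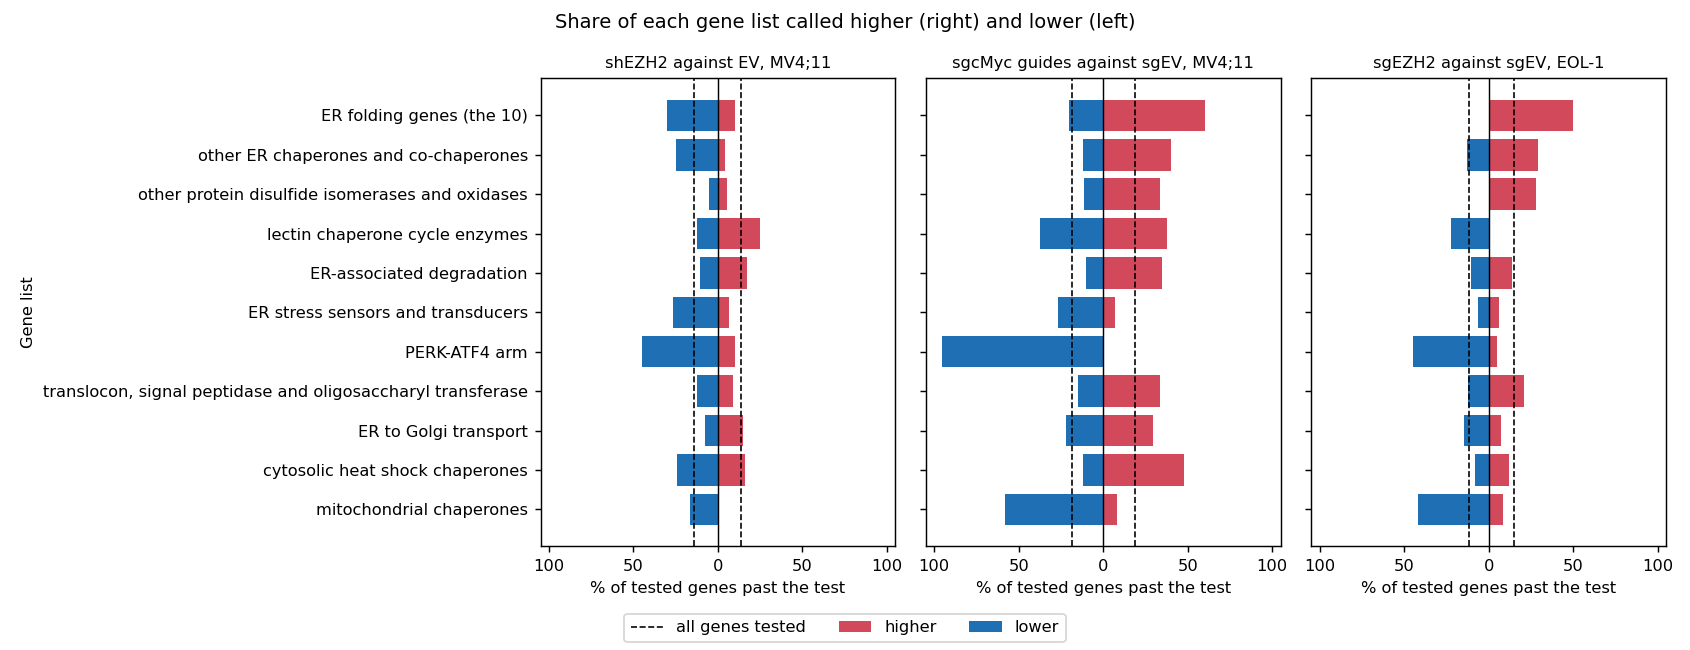
Share of each gene list past the test in 3 comparisons, higher to the right in red and lower to the left in blue, in % of the list's genes tested; dashed lines give the shares over all genes tested. In the sgcMyc comparison 6 of 10 folding genes were higher and 20 of 21 PERK-ATF4 genes lower, on the TMM scale.

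In MV4;11 shEZH2 cells HSPA5 was near its control level, and CANX, PDIA3 and XBP1 were lower. A single hairpin was used, so loss of EZH2 and other effects of that hairpin cannot be told apart. Of the 10 genes 1 was higher, 3 were lower and 6 did not pass the test, beside 27.7% of all 13591 genes called, 13.4% higher and 14.2% lower (3758 genes, and 2476 without the first shEZH2 library). The median log2 fold change was 0.06 over the 10 genes and 0.00 over all genes. The shEZH2 and EV libraries did not overlap for any of the 10 genes, and for 63.8% of all genes tested.

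HSPA5 stood at 542 and 550 CPM in EV and 533 and 535 in shEZH2 (-0.03 ± 0.04, adjusted p = 0.570). HSP90B1 was at 584 and 597 CPM in EV and 628 and 626 in shEZH2 (0.09 ± 0.04, adjusted p = 0.110). Neither chaperone passed the test. The 2 lectin chaperones parted, with CALR going from 849 and 855 CPM to 959 and 946 (0.16 ± 0.04, adjusted p = 0.00746) and CANX from 974 and 915 CPM to 688 and 670 (-0.48 ± 0.04, adjusted p = 1.17e-05). The CANX libraries of shEZH2 lay at 71.9% of control. The CALR call did not hold without either shEZH2 library or under spike-in scaling (adjusted p 0.115 to 0.196).

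PDIA3, the isomerase that binds CANX and CALR, fell with CANX, from 493 and 514 CPM in EV to 383 and 375 in shEZH2 (-0.41 ± 0.04, adjusted p = 2.23e-05). PDIA4 and PDIA6 did not pass, at 0.10 ± 0.04 and 0.03 ± 0.04. XBP1 fell from 423 and 441 CPM to 367 and 380 (-0.21 ± 0.04, adjusted p = 0.00266). That call did not hold without the first shEZH2 library (adjusted p = 0.0775). HERPUD1 was at 35.1 and 37.5 CPM in EV and 39.6 and 44.0 in shEZH2 (0.20 ± 0.07, adjusted p = 0.0567). DNAJB9 was the lowest in counts, at 12.2 and 11.0 CPM against 13.2 and 12.7 (0.16 ± 0.11, adjusted p = 0.325).

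Of 24 other ER chaperones tested in shEZH2 cells 1 was higher and 6 lower (median -0.09), among them SERPINH1, a collagen chaperone, at -0.45 ± 0.07. DESeq2 called 0 higher and 2 lower in that list. Over all genes 13.4% were higher and 14.2% lower by edgeR, and these shares apply to the lists that follow too. Disulfide isomerases and oxidases gave 1 higher and 1 lower of 18, and degradation genes 5 higher and 3 lower of 29, with the ubiquitin-conjugating enzyme gene UBE2J2 from 71.0 to 42.3 CPM (-0.75 ± 0.06). Under spike-in scaling the degradation genes gave 0 higher and 2 lower. The PERK-ATF4 list gave 2 higher and 9 lower of 20 (median -0.19), with ASNS at -0.92 ± 0.06 and TRIB3, a pseudokinase induced by ATF4, at -0.84 ± 0.08. On the higher side was TNFRSF10B, a death receptor, at 0.56 ± 0.05. By DESeq2 the PERK-ATF4 list gave 1 higher and 5 lower. Sensors and transducers gave 1 higher and 4 lower of 15, with TMBIM6, a membrane inhibitor of cell death, at -0.21 ± 0.04.

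In EOL-1 sgEZH2 cells HERPUD1 was higher by 57.3%, HSPA5 by 25.0% and HSP90B1 by 21.1%, while the CALR and CANX libraries overlapped those of control. A single guide was used, so loss of EZH2 and other effects of that guide cannot be told apart. Of the 10 genes 5 were higher, 0 were lower and 5 did not pass the test, beside 26.9% of all 13890 genes called, 15.1% higher and 11.8% lower. At an unadjusted p under 0.05, 6 were higher and 0 lower, and DESeq2 called 3 higher and 0 lower. Over all genes the 1639 lower calls became 1061 or 1020 without the first or second sgEV library. The median was 0.10 over the 10 genes and 0.01 over all genes. The groups did not overlap for 8 of the 10 genes and for 62.1% of all genes.

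HERPUD1 went from 62.0 and 58.7 CPM in sgEV to 93.1 and 96.7 in sgEZH2 (0.65 ± 0.04, adjusted p = 2.15e-09). HSPA5 went from 371 and 363 CPM to 455 and 463 (0.32 ± 0.03, adjusted p = 2.60e-07), and HSP90B1 from 376 in both controls to 451 and 460 (0.28 ± 0.03, adjusted p = 1.63e-06). In these 3 genes both sgEZH2 libraries stood above both controls. PDIA6 rose from 316 and 319 CPM to 342 and 343 (0.11 ± 0.03, adjusted p = 0.0107) and PDIA3 from 324 and 329 to 352 and 343 (0.09 ± 0.03, adjusted p = 0.0371). Both were small changes whose calls did not hold by DESeq2 (adjusted p = 0.0557 and 0.183) or without either sgEV library (0.145 to 0.392). PDIA3 also did not pass without the first sgEZH2 library (0.0585), without the robust step (0.0511) or with limma (0.0868). PDIA4 was at 0.10 ± 0.04 (adjusted p = 0.0732).

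CALR and CANX overlapped between the groups, at 956 to 980 CPM against 969 to 973 and 627 to 650 CPM against 619 to 646. XBP1, which fell in both MV4;11 comparisons, was at 362 and 365 CPM in sgEV and 345 and 357 in sgEZH2 (-0.05 ± 0.03, adjusted p = 0.256). DNAJB9 was at 13.4 and 14.7 CPM against 14.9 and 15.4 (0.10 ± 0.08, adjusted p = 0.384). The summed myeloid markers were higher in sgEZH2, as given above. Those of plasma and B cells (7 of 14 with a row, none at 0) went from 28.0 to 29.1 CPM up to 35.7 to 37.6 CPM. The largest rows of that sum were PRDM1 (mean 11.2 CPM in sgEV and 12.2 in sgEZH2) and DERL3 (9.83 and 8.80). IGKC, CD79A and IGJ, which passed the test as higher, were low: 2.31, 2.755 and 0.363 CPM in sgEV and 5.64, 5.87 and 1.535 in sgEZH2. The part of these markers in the result was not tested.

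Among the wider lists in EOL-1, 7 of 24 other ER chaperones were higher and 3 lower (median 0.15), with LRPAP1 and the prolyl isomerase PPIB up by 0.16 ± 0.03 and 0.15 ± 0.03. DESeq2 called 2 higher and 2 lower in that list. Over all genes 15.1% were higher and 11.8% lower by edgeR, shares that apply to the lists that follow as well. Disulfide isomerases and oxidases gave 5 higher and 0 lower of 18 (at an unadjusted p under 0.05, 6 and 1), with the sulfhydryl oxidase QSOX1 up by 0.51 ± 0.03 and ERP29, a chaperone of secreted proteins, by 0.22 ± 0.03. Among import genes 7 were higher and 4 lower of 33, the signal peptidase subunit SPCS3 by 0.32 ± 0.03. EDEM1 fell by 0.25 ± 0.04, and UBE2J1 rose by 0.24 ± 0.03. The PERK-ATF4 list gave 1 higher and 9 lower of 20 (median -0.07), 4 of them lower by DESeq2, with CHAC1, a glutathione-degrading enzyme, at -0.60 ± 0.10. Of 16 sensors and transducers 1 was higher and 1 lower, the latter MAP3K5, a stress kinase also called ASK1, at -0.55 ± 0.05.

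**Figure D4:**
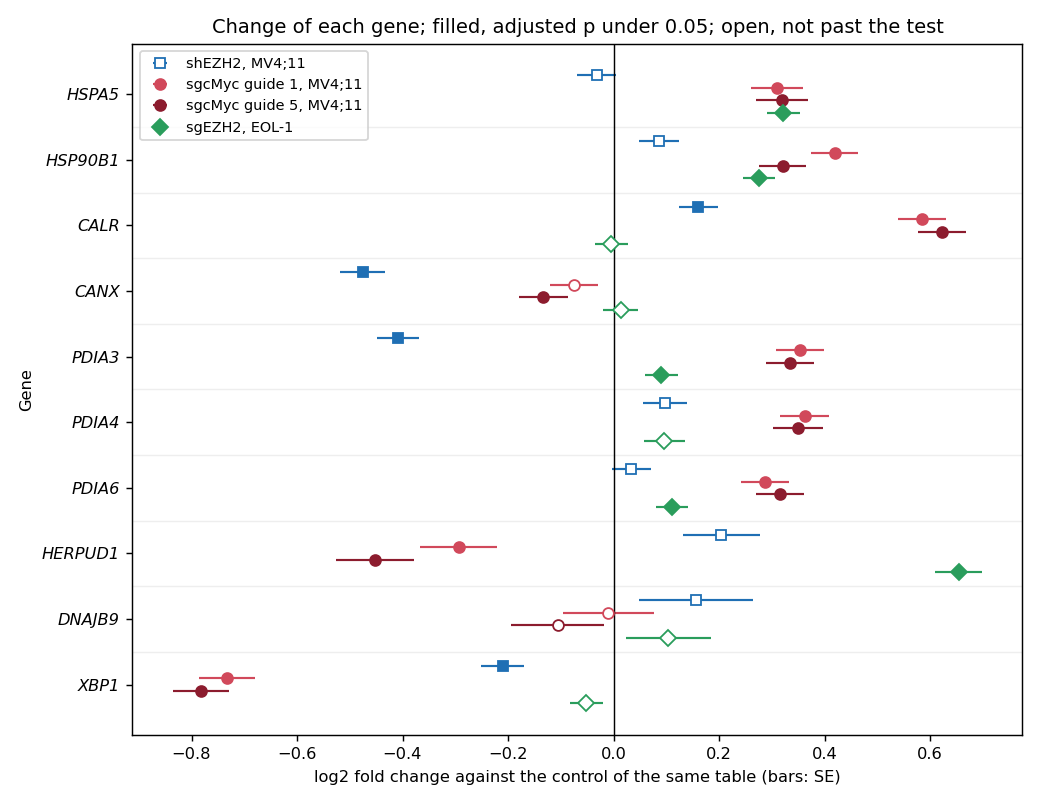
Log2 fold change of each of the 10 genes against the control of its own table, with SE bars; filled symbols passed the edgeR test and open ones did not. Both MYC guides, which share their controls, lie at 0.31 and 0.32 for HSPA5 and at -0.73 and -0.78 for XBP1, and HERPUD1 lies at 0.65 in EOL-1.

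The effect of EZH2 depletion differed between the lines for 7 of the 10 genes by the interaction test of edgeR, 6 with a more positive change in EOL-1 and 1 with a more negative one, beside 26.5% of all 13543 genes tested (14.1% and 12.5%). A hairpin was used in MV4;11 and a guide in EOL-1, so the line and the way of depletion cannot be told apart. The EZH2 transcript left differed too, at 13.1% and 38.2% of control, and the protein was not measured. PDIA3 differed by 0.49 ± 0.05 (adjusted p = 1.89e-06), CANX by 0.48 ± 0.05 (adjusted p = 8.88e-06) and HERPUD1 by 0.44 ± 0.08 (adjusted p = 0.00121). HSPA5 differed by 0.35 ± 0.04 (adjusted p = 3.08e-05) and HSP90B1 by 0.18 ± 0.04 (adjusted p = 0.00603). CALR went the other way, by -0.17 ± 0.04 (adjusted p = 0.00892), and did not pass without the first shEZH2 library (adjusted p = 0.0586). XBP1 differed by 0.15 ± 0.05 (adjusted p = 0.0322), a call lost without any 1 of 4 libraries (adjusted p 0.0932 to 0.131): the first shEZH2 library, either EOL-1 sgEV library and the second sgEZH2 library. PDIA4, PDIA6 and DNAJB9 did not pass.

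**Figure D5:**
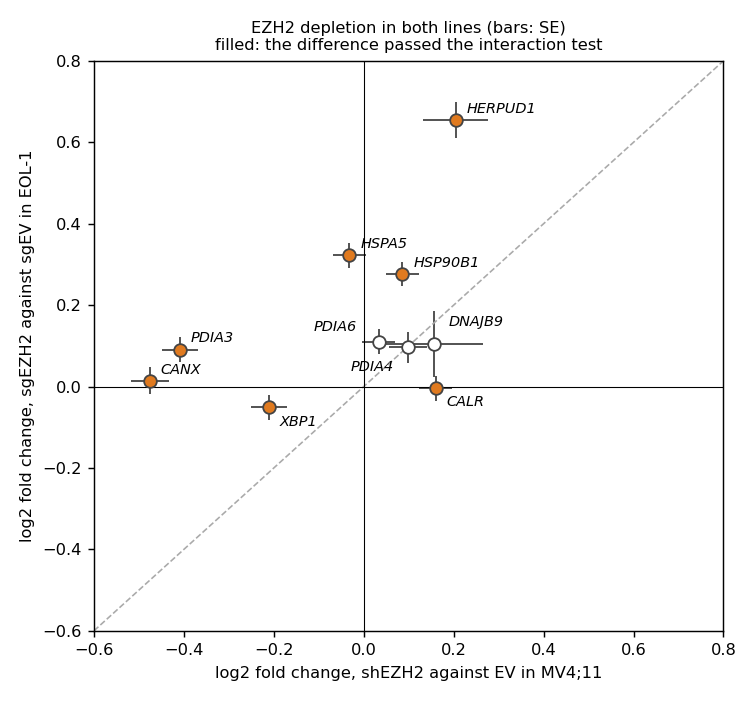
Log2 fold change on EZH2 depletion in EOL-1 (y axis) against MV4;11 (x axis) for the 10 genes, with SE bars and the line of equal change dashed; filled points passed the interaction test. HERPUD1, HSPA5, HSP90B1, PDIA3, CANX and XBP1 lie above the dashed line and CALR below it.

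The genes whose pattern was most like that of HSPA5 were sought over the 14 libraries, with log2 CPM set to the control mean of each table. Among 12421 genes, Pearson's r was highest for CFD and HPS1 (both 0.990), MNDA (0.984), FAM105A (0.982) and AZU1 (0.980). CFD is complement factor D, HPS1 acts in the making of lysosome-related organelles, MNDA is a nuclear antigen of myeloid cells and AZU1 is a protein of azurophil granules. CFD was at 397 to 406 CPM in sgEV and 787 to 910 with the MYC guides, 279 to 294 in EOL-1 sgEV and 540 to 566 in sgEZH2, and 513 to 540 in EV and 504 to 505 in shEZH2. These libraries fall into a raised group and a control-like group, and pairs share controls, so r describes that split and carries no p. Of the 10 genes HSP90B1 was the most like HSPA5 (r = 0.928, rank 91 among the genes compared). PDIA6 (0.867, rank 320), PDIA4 (0.790, rank 721), PDIA3 (0.779, rank 795) and CALR (0.649, rank 1766) came next. CANX (0.210), HERPUD1 (-0.098) and DNAJB9 (-0.214) were less like HSPA5, and XBP1 ran against it (r = -0.665).

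Some counts are uncertain by their construction. HSP90B1 has the near-copies HSP90B2P and HSP90B3P, with rows of at most 15 counts in any library, and PDIA3 has PDIA3P1, with 201 to 318 counts, so the estimate of these genes could be split between copies. The sources used here do not state whether counting used the strand.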

How the data were processed

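Total RNA of 14 libraries in 7 groups of 2 was analysed, grouped by title. Columns were assigned to titles by inference from table, target, guide and replicate number, because their names are abbreviated. Per the file headers, the raw columns are the authors' estimated counts per gene. RSEM, DESeq and the build hg19 are named, without versions, in the submitters' processing notes. Normalised columns are log2 values of the authors, used only in an alternative, and 1 column of mean normalised signal, deposited by the authors for EOL-1, was not used. The sources used here give no aligner, annotation or filter.

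Estimated counts were rounded. Both MV4;11 tables also hold 56 spike-in rows (1.06 to 1.30% of counts), kept out of library sizes and tests, and 18 rows with a date for a symbol were tested and not named. Genes passed filterByExpr, and TMM scaling and the quasi-likelihood test (glmQLFit, robust, and glmQLFTest) of edgeR 4.0.16 in R 4.3.3 were run per table with Benjamini-Hochberg adjustment, on all 3 MYC groups together, with an interaction contrast for the difference between lines. SE is the log2 fold change divided by the root of F. Replicates differed by more than sampling noise (chi-square per degree of freedom 1.47 to 5.47), and the biological coefficient of variation was 0.0352 (shEZH2), 0.0422 (sgcMyc) and 0.0257 (EOL-1). On simulated counts the fit recovered 100, 100 and 99% of 2-fold and 93, 94 and 93% of 1.5-fold changes in these 3 comparisons, over 13591, 13948 and 13890 genes.

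The 10 genes and the lists were chosen with earlier results of these data known. Named are the 10 genes, EZH2 and MYC, up to 4 called genes with the smallest p per list and comparison, and the 5 genes most like HSPA5. Alternatives used DESeq2 1.42.0, its size factors, limma 3.58.1, other filters, spike-in scaling, a replicate block and each library left out. Promoter sequences are RefSeq (GRCh38.p14), a build other than that of the counts.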

Additional observations from a re-analysis of the deposited data

Results flagged for a closer look

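The response to EZH2 depletion differed between EOL-1 and MV4;11 for 7 of the 10 genes, by the interaction contrast of edgeR. The log2 difference, EOL-1 minus MV4;11, was 0.346 for HSPA5, 0.1822 for HSP90B1, 0.4816 for CANX, 0.4906 for PDIA3, 0.4415 for HERPUD1 and 0.1507 for XBP1, and it was -0.1733 for CALR. Of all genes tested, 26.5% passed the same test. The line and the kind of depletion (hairpin or guide) cannot be told apart. Myeloid markers moved too. LYZ rose from a mean of 194 to 502 CPM in MV4;11 and from 198 to 1640 in EOL-1, while the other 8 went from 1339 to 1344 CPM in sum down to 1157 to 1176 in MV4;11 and from 834.5 to 851.3 up to 1013 to 1022 in EOL-1. In MV4;11 3 of the 9 were higher and 4 lower (13.4% and 14.2% of all genes), among them FLT3 (-0.43), PTPRC (-0.48) and MPO (-0.51). In EOL-1 8 of these markers were higher and 0 lower (15.1% and 11.8% of all genes). Their part in the differences was not tested.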

How the results depend on the processing

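Of the counts of the 10 genes called, 173 recomputed values stayed within 1.5 times of the reported one and 15 did not. For shEZH2, the 1 higher call became 2 when genes needed a mean of 50 counts, 4 with a replicate block, 0 under spike-in scaling and 0 to 4 with a library left out (4 without the second EV library, 0 without the second shEZH2 library). For guide 1, the 2 lower calls became 1 under spike-in scaling and 1 to 3 with a library left out (3, with CANX added, without either guide 5 library). Guide 5 minus guide 1 gave 0 to 1 lower with a library left out, the 1 being HERPUD1 without the second guide 5 library. In EOL-1 the 5 higher calls became 3 by DESeq2 and 3 to 5 with a library left out (3 without either sgEV library), and the lower calls 0 to 1 (1 without the second sgEZH2 library). The 1 more negative gene of the interaction became 0 to 1 (0 without the first shEZH2 library). The cause was not tested.

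Of single values, 865 kept direction and side of the threshold, 26 lost and 19 gained a call, and 30 changed sign. Of those 30 only CANX with guide 5 had passed the test (-0.13, adjusted p = 0.0443). Under spike-in scaling the sign changed for PDIA6 in shEZH2 (-0.0136). Against sgEV it changed for CANX (0.0139 for both guides, 0.00956 for guide 1, 0.0182 for guide 5) and DNAJB9 (0.0557, 0.0730 and 0.0384). In guide 5 minus guide 1 it changed for CANX (0.00865), PDIA3 (0.0433), PDIA4 (0.0499) and XBP1 (0.0102). With limma on the authors' log2 values DNAJB9 with guide 1 gave 0.00112 and CANX in EOL-1 gave -0.00219. With genes filtered at a mean of 50 counts CALR in EOL-1 gave 0.00339 and PDIA4 in the interaction 0.00133. With a library left out, DNAJB9 with guide 1 ranged from -0.0698 to 0.0477. In guide 5 minus guide 1, HSPA5 ranged from -0.0424 to 0.0619, PDIA3 from -0.0438 to 0.00745, PDIA4 from -0.0385 to 0.0154, PDIA6 from -0.00562 to 0.0652 and XBP1 from -0.124 to 0.0242. In EOL-1, CALR ranged from -0.0242 to 0.00504 and CANX from -0.0200 to 0.0428. In the interaction, PDIA4 ranged from -0.0266 to 0.0156 and DNAJB9 from -0.124 to 0.0192.

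Same-numbered libraries are not paired by the labels, and their deviations correlated by -0.253 to 0.285. A replicate block added CANX (-0.10, adjusted p = 0.0406) to the lower calls for both guides (3 in place of 2) and HSP90B1, PDIA4 and HERPUD1 as higher in shEZH2, and changed no other call of the 10 genes. In EOL-1 it left 5 higher, also with crossed numbers, chosen after seeing the data. Over all genes, 50 recomputed counts of calls moved by over 1.5 times and 138 did not, those from single libraries being given beside the shares. DESeq2 gave 833 higher and 856 lower for shEZH2, 1626 and 1542 for sgcMyc and 998 and 646 for EOL-1. Spike-in scaling gave 805 higher and 1407 lower for shEZH2 and 3136 and 1169 for sgcMyc. For guide 5 minus guide 1 it gave 0 higher and 1 lower, and a replicate block 33 and 96. Simulated data showed what 1.5-fold and 2-fold changes give at this depth in genes with a mean of at least 50 counts and a common spread. Smaller changes were not simulated.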

Other observations

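Outside the ER, cytosolic heat shock chaperones gave 12 higher and 3 lower of 25 tested in the sgcMyc comparison (median 0.10), and 14 higher and 1 lower under spike-in scaling. Over all genes the shares on the TMM scale were 18.6% higher and 18.7% lower. HSPA8, the constitutive HSP70, rose by 0.34 ± 0.04 from a mean of 1361 to 1727 CPM, and its co-chaperone gene DNAJA1 by 0.36 ± 0.04. HSPA1A went from 69.0 to 134 CPM (0.96 ± 0.05), though its near-identical copy HSPA1B makes the count uncertain. In shEZH2 cells the same list gave 4 higher and 6 lower of 25, beside 13.4% and 14.2% of all genes. PTGES3, the HSP90 co-chaperone p23, went from 652 to 334 CPM (-0.96 ± 0.04). HSPA4L, a nucleotide exchange factor of the HSP110 family, rose by 0.88 ± 0.08 in shEZH2, by 0.72 ± 0.10 in sgcMyc and by 0.98 ± 0.07 in EOL-1 sgEZH2.

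Mitochondrial chaperones and proteases gave 1 higher and 7 lower of 12 in the sgcMyc comparison (median -0.21), and 1 higher and 2 lower under spike-in scaling. On the TMM scale 18.6% of all genes were higher and 18.7% lower in that comparison. The protease gene LONP1 fell by 0.82 ± 0.04 there, by 0.12 ± 0.04 in shEZH2 and by 0.27 ± 0.03 in EOL-1, and the exchange factor gene GRPEL2 by 0.98 ± 0.08 in sgcMyc.

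The 2 MV4;11 controls, which sit in tables scaled separately, stood apart in some of the 10 genes, a difference that was not tested. HERPUD1 was at 35.1 and 37.5 CPM in EV and 86.2 and 83.4 in sgEV, DNAJB9 at 12.2 and 11.0 against 25.0 and 24.7, and CALR at 849 and 855 against 597 and 589. HSPA5 was at 542 and 550 CPM in EV and at 529 and 536 in sgEV.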
